A study of Mus musculus with 9 samples.

Results

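Mitosis and proliferation genes are the genes that a cell switches on to copy its DNA, separate its chromosomes and divide. The set described here holds 47 of the 24532 genes in the deposited liver table, matched by gene symbol from a given list of markers of dividing cells, cyclins with Cdk1, transcription factors, nucleotide enzymes, mitotic kinases with their checkpoint and degradation partners, kinetochore proteins, spindle proteins and cytokinesis proteins. The list was given by gene name, but it was chosen with earlier results of these data known. All 47 matched, and all 47 passed the filter on low counts that left 14731 genes for testing.

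The livers came from wild-type C57BL/6 mice, whose age the labels do not state. Every mouse received thioacetamide (TAA), a liver toxin that kills hepatocytes and leads to fibrosis, by intraperitoneal injection in rising doses, 2 a week, over 10 weeks. The 3 groups, of 3 libraries each, differ in what was given beside TAA: normal saline (TAA alone, replicates 12, 13 and 14), recombinant human cytoglobin (rhCYGB) for the last 2 weeks (replicates 17, 18 and 19), or rhCYGB for the last 5 weeks (replicates 23, 27 and 28). rhCYGB, a globin known from stellate cells of the liver, was injected into the tail vein at 2 mg/kg with 2 doses a week, and mice were killed 2 days after the last dose. Livers without TAA are not analysed here, so no level can be set against a healthy liver. Nothing in the labels says that the numbered samples are different animals; the p-values reflect the variation among these libraries, and part of it may be technical.

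Most hepatocytes of an adult liver rest outside the cell cycle. After injury they re-enter it: growth signals raise D-type cyclins, E-type cyclins with E2F factors start DNA replication, and A- and B-type cyclins with Cdk1, Foxm1 and B-Myb (Mybl2) drive the genes of mitosis. Fibroblast-like cells, macrophages and other cells of an injured liver also divide, and RNA of whole tissue does not tell which cells made a transcript.

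Levels are given as TMM-scaled CPM, that is, read counts brought to a common library size after a scaling that sets most genes level between libraries. Library totals ran from 55655727 to 87289945 reads, so members were well covered; the lowest member count in any library was 29 reads, for Kif15 in replicate 17. The hepatocyte markers summed to between 103000 and 153000 CPM in the 9 libraries, as the label liver calls for. Replicates 17 and 18 (2 weeks) and 23 (5 weeks) stood apart from the others on the first principal component, which held 32.3% of the variance and placed them at -39.4, -44.1 and 78.8, against -20.5 to 20.2 for the rest. Counts of calls, and the changes this moved by over 1.5 times, are therefore also given without these 3 libraries.

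Per kilobase of transcript (FPKM, the authors' length-scaled unit), members covered a wide range in the TAA livers. Ccnd1, cyclin D1, had the highest mean at 52.0 FPKM, ahead of Ube2c at 38.1 FPKM and Cdc20 at 30.7 FPKM, both of which serve the anaphase-promoting complex. Kif15, a spindle motor, had the lowest at 0.585 FPKM.

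Many promoters of mitotic genes are known to hold a CCAAT box, bound by NF-Y, and a cell cycle homology region (CHR), bound by the MuvB complex with B-Myb or, in resting cells, with repressors. RefSeq promoter windows (GRCm38.p6, from 250 bases before to 50 bases after the gene start, 300 bases in all) were matched for 39 of the 47 members by gene ID. The CHR was searched as TTTGAA and the CCAAT box as CCAAT, each on both strands. The 4 windows below are shown because each belongs to a gene described below and holds both motifs, so that their spacing can be read; they run 5′ to 3′ on the gene's strand, with CHR and CCAAT matches on either strand in capitals. Mki67 lies on the minus strand at chr7:135716330-135716629, Top2a on the minus strand at chr11:99024140-99024439, Plk1 on the plus strand at chr7:122159185-122159484, and Spc25 on the minus strand at chr2:69206164-69206463.
Mki67: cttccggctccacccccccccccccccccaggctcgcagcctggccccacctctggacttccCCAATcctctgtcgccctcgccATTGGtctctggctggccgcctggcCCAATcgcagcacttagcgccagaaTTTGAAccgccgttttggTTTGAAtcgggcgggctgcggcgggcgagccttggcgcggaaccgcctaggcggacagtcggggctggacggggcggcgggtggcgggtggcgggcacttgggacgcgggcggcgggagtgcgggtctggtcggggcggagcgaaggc
Top2a: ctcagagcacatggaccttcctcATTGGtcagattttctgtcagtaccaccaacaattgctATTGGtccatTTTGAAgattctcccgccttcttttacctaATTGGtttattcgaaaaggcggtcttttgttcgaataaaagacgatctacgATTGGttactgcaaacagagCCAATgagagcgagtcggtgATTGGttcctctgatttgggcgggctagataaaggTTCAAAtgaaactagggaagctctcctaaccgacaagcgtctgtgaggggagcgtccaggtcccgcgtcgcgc
Plk1: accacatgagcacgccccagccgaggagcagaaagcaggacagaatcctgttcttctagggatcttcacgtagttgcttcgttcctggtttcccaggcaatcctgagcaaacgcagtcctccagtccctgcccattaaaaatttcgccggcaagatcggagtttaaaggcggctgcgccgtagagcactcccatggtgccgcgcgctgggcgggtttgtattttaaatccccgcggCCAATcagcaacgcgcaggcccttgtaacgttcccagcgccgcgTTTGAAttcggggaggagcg
Spc25: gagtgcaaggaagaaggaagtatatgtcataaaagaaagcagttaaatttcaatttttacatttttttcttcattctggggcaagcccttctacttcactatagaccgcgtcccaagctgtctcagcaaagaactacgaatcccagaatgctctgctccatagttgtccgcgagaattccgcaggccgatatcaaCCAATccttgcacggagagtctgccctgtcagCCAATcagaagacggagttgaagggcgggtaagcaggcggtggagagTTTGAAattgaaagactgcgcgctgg
The Mki67 window holds 2 CHR and 3 CCAAT matches, that of Top2a 2 and 6, that of Plk1 1 and 1, and that of Spc25 1 and 2.

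A CHR match stood in 26 of the 39 member windows (66.7%), against 14.5% of the windows of 11156 other tested genes and 20.2% of all 27025 windows. A CCAAT match also stood in 26 (66.7%), against 42.6% of other tested genes and 41.1% of all windows, and 22 (56.4%) held both, against 6.89% and 8.97%. For the E2F site, searched as TTCCCGC or TTGGCGC on both strands, the members' share of 15.4% (6 of 39) lay near the 13.2% of other tested genes. The motifs were spread unevenly over roles: a CHR match stood in 1 of 7 windows of G1 and G1/S cyclins, transcription factors and nucleotide enzymes, and in 25 of 32 windows of the other 6 roles. The change with rhCYGB differed little between members with both motifs and those without both, with median log2 changes of -0.84 (22 genes) and -0.78 (17 genes) after 2 weeks and of -0.70 and -0.61 after 5 weeks. A match is a run of letters and not a measured binding site.

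The summed level of the members was lower in every rhCYGB library than in every TAA library. It was 852, 973 and 951 CPM in TAA replicates 12, 13 and 14, then 473, 608 and 575 CPM after 2 weeks (replicates 17, 18 and 19) and 580, 631 and 578 CPM after 5 weeks (replicates 23, 27 and 28). The mean log2 level over members, set against the TAA mean, was -1.10, -0.70 and -0.70 in the 2-week libraries and -0.69, -0.60 and -0.63 in the 5-week libraries, so that replicate 17 stood lowest. For 44 of the 47 members the highest of the 9 libraries was a TAA library; the exceptions were Mybl2 (replicate 17), E2f8 (replicate 23) and Tk1 (replicate 27). Replicate 17 was the lowest of all 9 libraries for 34 members. In bulk tissue, fewer dividing cells and less RNA per dividing cell cannot be told apart.

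**Figure D1:**
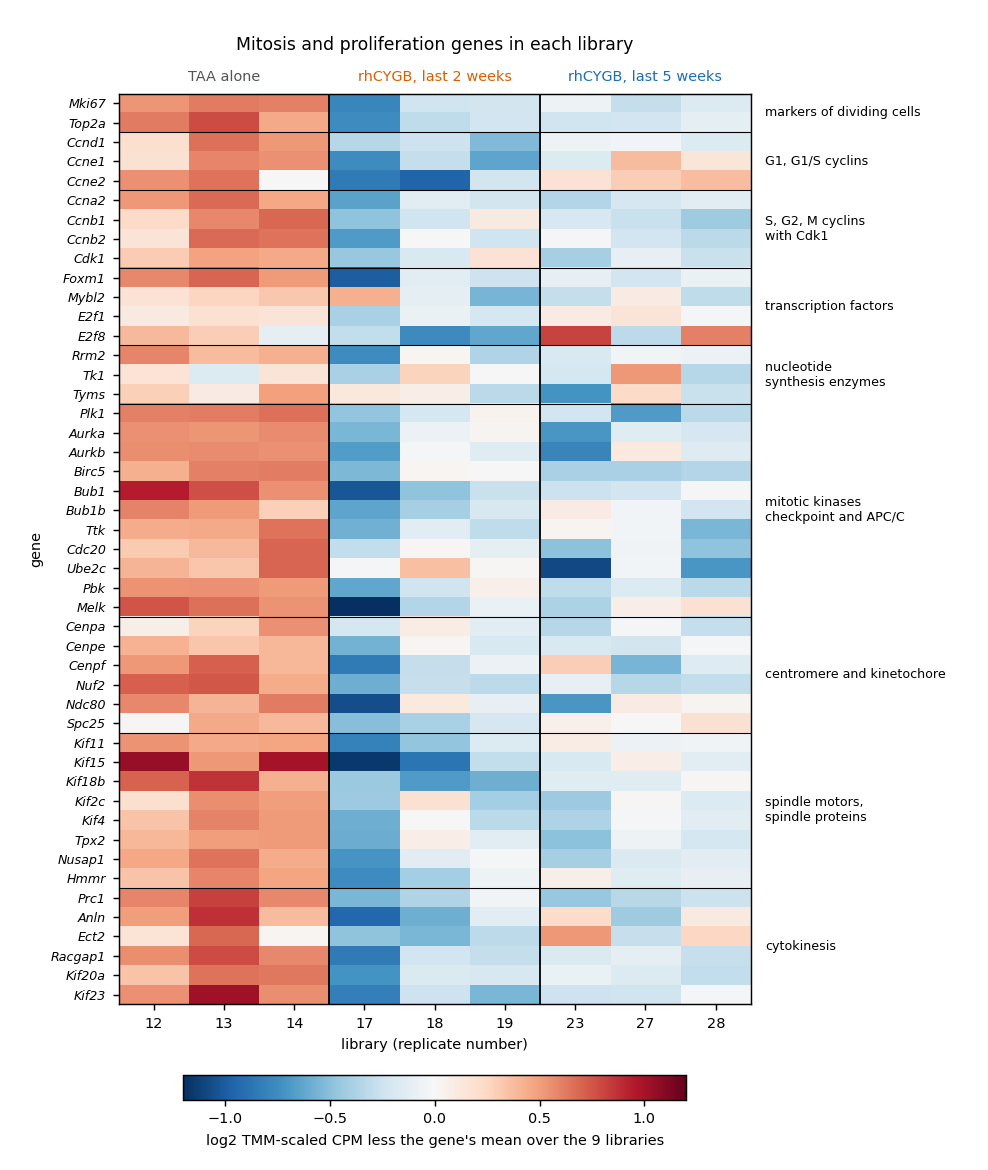
Each row is 1 of the 47 genes, grouped by role, and each column 1 of the 9 libraries; colour gives the log2 CPM of the gene minus its mean over all libraries. The 3 TAA columns stand above the mean for nearly all rows, the column of replicate 17 is the lowest for 34 rows, and Tk1, Mybl2 and E2f8 are the rows whose highest library is not a TAA library.

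Against TAA alone, rhCYGB for 2 weeks was accompanied by lower levels of 23 of the 47 members (48.9%) and higher levels of none, by edgeR's quasi-likelihood test at an adjusted p under 0.05. Over all tested genes 3.31% were called, 1.34% lower and 1.98% higher. All 47 changes were below 0, against 52.9% of all tested genes, with a median log2 change of -0.81 against -0.03 over all tested genes, and they ran from -1.64 for Kif15 to -0.08 for Tk1 in the count fit. For 42 of the 47 (89.4%), all 3 rhCYGB libraries lay below all 3 TAA libraries, against 16.3% of all tested genes. The 5 whose groups overlapped were Mybl2, Tk1, Tyms, Ube2c and Cenpa. At an unadjusted p under 0.05, 43 members were lower and none higher, against 10.5% of all tested genes lower.

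After 5 weeks, 6 of the 47 members (12.8%) were called lower and none higher, against 1.29% of all tested genes called, 0.604% lower and 0.686% higher. The 6 were Top2a, Ccna2, Plk1, Birc5, Nuf2 and Prc1. The median log2 change was -0.69 against 0.01 over all tested genes, 46 of 47 changes were below 0 (48.6% of all tested genes were), and the range was -1.03 to 0.24, with E2f8 at the upper end. In 39 of the 47 (83.0%) the groups did not overlap, all of them lower, against 13.4% of all tested genes. At an unadjusted p under 0.05, 36 members were lower and none higher, against 9.62% of all tested genes lower and 9.59% higher. Both comparisons use the same TAA libraries, so they are not independent of each other.

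The number of calls rested on single libraries more than the changes did. Without replicate 13, 14, 17 or 18, edgeR called 0 of the 47 members after 2 weeks, and without replicate 12 it called 1, Ccnd1. Those settings left 1, 2, 5, 3 and 31 genes called among all tested genes, against 488 with all libraries. Without replicate 19, 23, 27 or 28 the members called numbered 21, 34, 27 and 11, beside 368, 1095, 888 and 169 genes in all. In each of these settings 39 to 43 members were lower at an unadjusted p under 0.05, and the median log2 change lay between -0.93 and -0.71. DESeq2 on all 9 libraries called 38 members lower, with 726 genes called lower in all against 197 by edgeR. Without replicates 17, 18 and 23 together, a setting chosen after the data were seen, edgeR called 0 members and 12 genes in all, 37 members were lower at an unadjusted p under 0.05, and the median was -0.70. After 5 weeks, edgeR called 5 members without replicate 27 and 0 without replicate 12, 13, 14, 17, 18, 19, 23 or 28, or without 17, 18 and 23 together. In these settings 32 to 38 members were lower at an unadjusted p under 0.05 and the medians stayed between -0.73 and -0.68, while DESeq2 on all libraries called 27, with 557 genes called lower in all against 89 by edgeR. Of the members given by library, those whose change moved by over 1.5 times without replicates 17, 18 and 23 were, after 2 weeks, Anln (-0.74), Ccne2 (-0.65), Cdk1 (-0.24), Ccnb1 (-0.41), Mybl2 (-0.82) and Tyms (-0.63). After 5 weeks they were Ccne1 (-0.19), Ccne2 (-0.09), E2f8 (0.02), Ect2 (-0.31), Tk1 (0.10) and Tyms (-0.30), none of them called with all libraries.

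**Figure D2:**
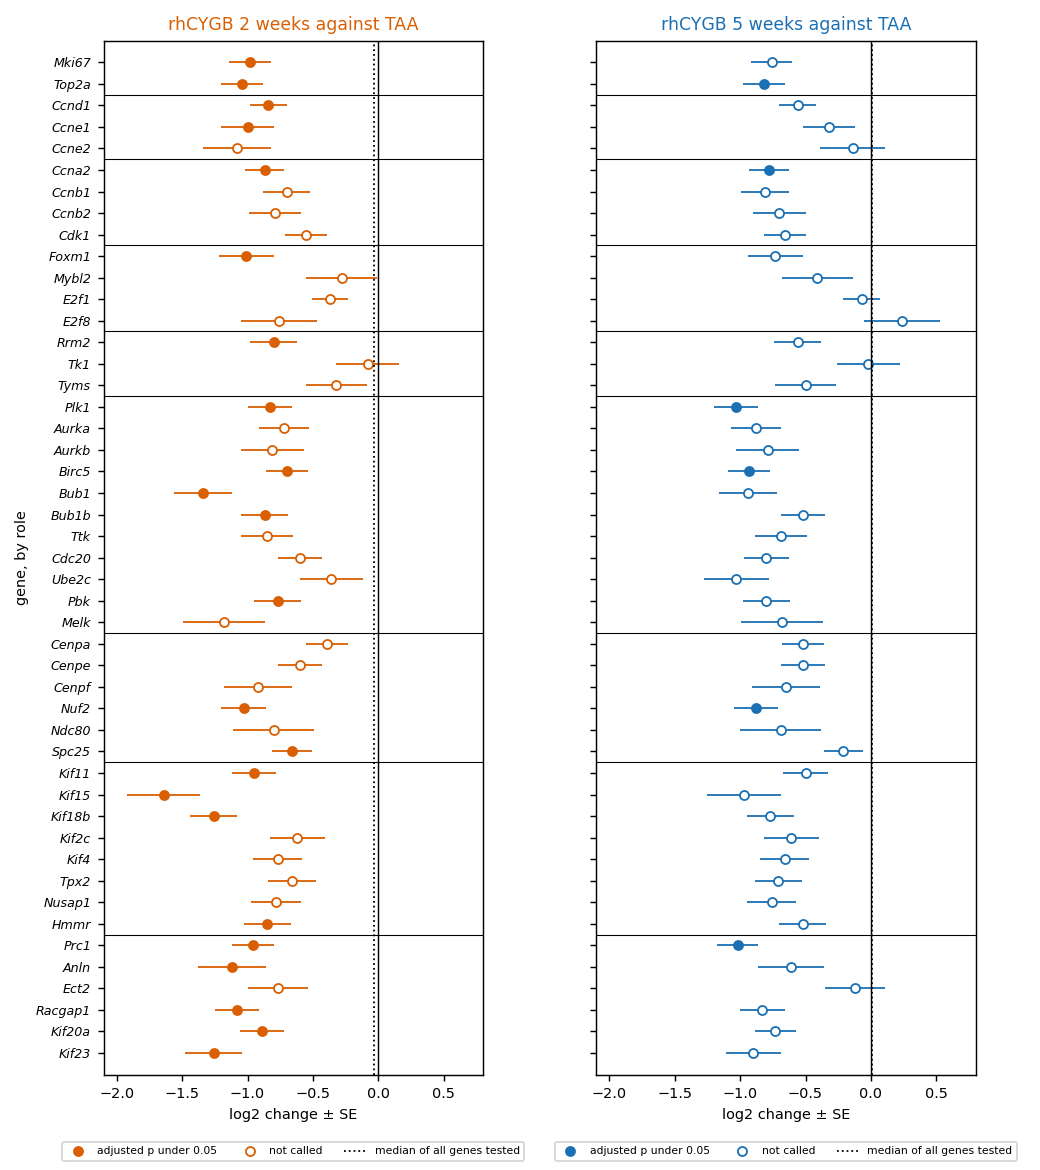
Log2 change of each of the 47 genes against TAA after 2 weeks and after 5 weeks of rhCYGB, as points with bars of 1 SE, filled where the adjusted p was under 0.05. After 2 weeks the points lie between -1.64 and -0.08, after 5 weeks between -1.03 and 0.24, with E2f8 as the only point above 0.

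The markers of dividing cells were both called after 2 weeks. Mki67 encodes Ki-67, a coat protein of mitotic chromosomes that is absent from resting cells (gene ID 17345, mm10 chromosome 7, 135689788 to 135716379, minus strand). Its level was 54.1, 57.7 and 56.9 CPM in TAA, 21.7, 31.7 and 32.0 CPM after 2 weeks and 35.8, 30.6 and 33.3 CPM after 5 weeks. Both rhCYGB groups lay below every TAA library and overlapped each other. The log2 change was -0.98 ± 0.16 (SE, adjusted p = 0.024) after 2 weeks and -0.76 ± 0.16 (adjusted p = 0.0521) after 5 weeks, the latter just above the threshold. Top2a, topoisomerase II alpha, which untangles replicated chromosomes (gene ID 21973, chromosome 11, 98992947 to 99024189), stood at 28.5, 31.7 and 25.2 CPM in TAA, 10.9, 14.9 and 15.7 CPM after 2 weeks and 15.7, 15.7 and 17.1 CPM after 5 weeks. It was called in both comparisons, at -1.04 ± 0.16 (adjusted p = 0.024) and -0.82 ± 0.16 (adjusted p = 0.0472). For both genes the rhCYGB libraries did not overlap those of TAA.

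**Figure D3:**
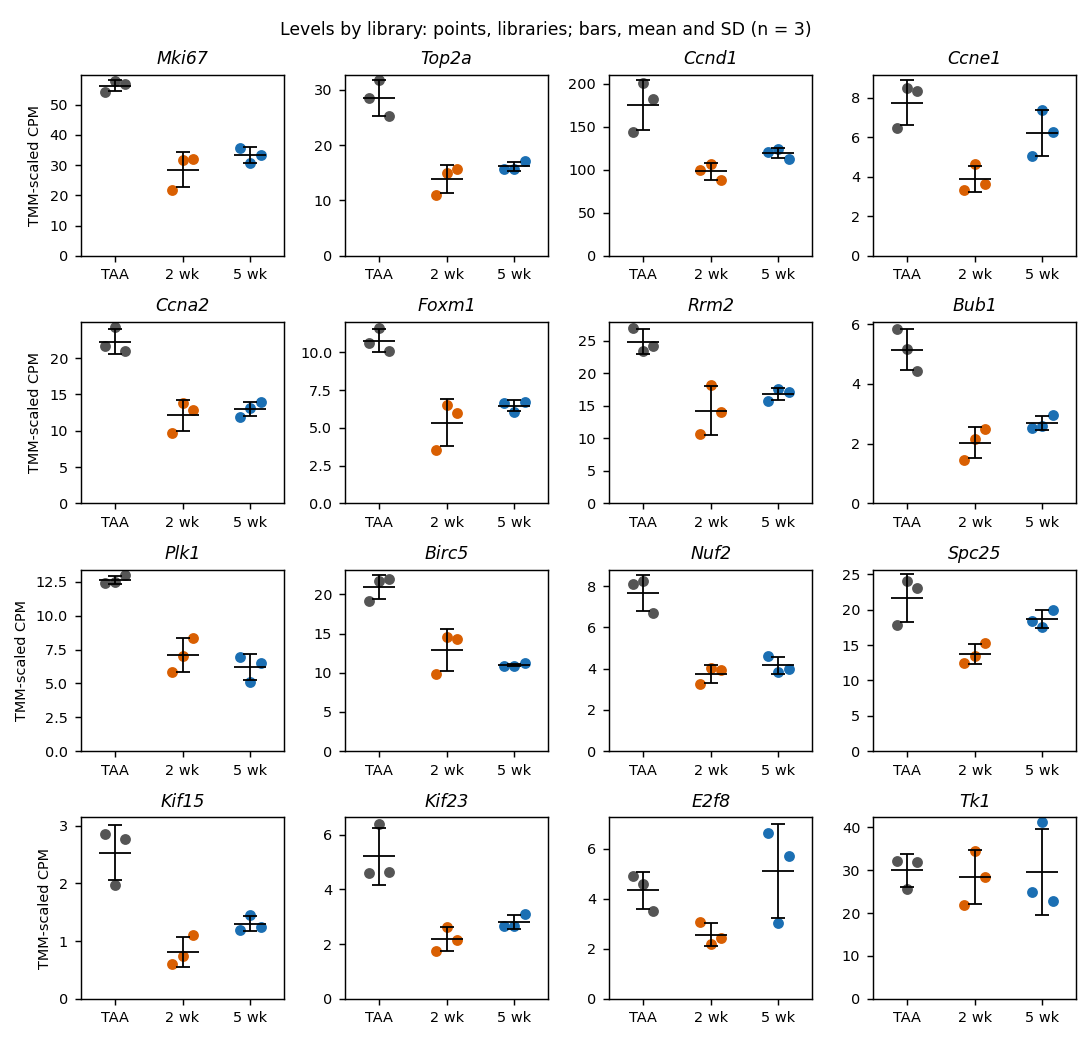
TMM-scaled CPM of 16 of the genes in each library, with the group mean and 1 SD (n = 3). Mki67 has means of 56.2 CPM in TAA, 28.5 CPM after 2 weeks and 33.2 CPM after 5 weeks, while the Tk1 means are 29.9, 28.3 and 29.6 CPM and E2f8 is lowest after 2 weeks and most scattered after 5 weeks.

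Of the G1 and G1/S cyclins, Ccnd1 and Ccne1 fell after 2 weeks, and none of the 3 passed the test after 5 weeks. Cyclin D1 links growth signals to the cell cycle and is the cyclin that rises when hepatocytes leave rest. Ccnd1 (gene ID 12443, chromosome 7, 144929931 to 144939925) stood at 144, 201 and 182 CPM in TAA, 99.7, 107 and 87.7 CPM after 2 weeks and 121, 124 and 113 CPM after 5 weeks. No rhCYGB library reached the lowest TAA library, and the 5-week libraries all lay above the 2-week libraries. Its log2 change was -0.84 ± 0.14 (adjusted p = 0.0255) and then -0.56 ± 0.14 (adjusted p = 0.0818).

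Ccne1, cyclin E1, which activates Cdk2 at the start of replication (gene ID 12447, chromosome 7, 38097984 to 38107490), was at 6.45, 8.50 and 8.32 CPM in TAA, 3.35, 4.64 and 3.65 CPM after 2 weeks and 5.06, 7.38 and 6.26 CPM after 5 weeks. The 2-week libraries stood below the rest without overlap, while the 5-week libraries overlapped TAA. The change was -1.0 ± 0.20 (adjusted p = 0.0369) after 2 weeks and -0.32 ± 0.20 (adjusted p = 0.426) after 5 weeks. Ccne2, cyclin E2, had the same order of groups, with 4.08, 4.41 and 2.77 CPM, then 1.53, 1.42 and 2.39 CPM, then 3.15, 3.42 and 3.62 CPM. It missed the threshold after 2 weeks (-1.08 ± 0.26, adjusted p = 0.0521) and lay near 0 after 5 weeks (-0.14 ± 0.25, adjusted p = 0.807).

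Of Cdk1 and the cyclins of S phase, G2 and M, 1 of 4 was called in each comparison. This was Ccna2, cyclin A2, which acts in replication and at entry into mitosis (gene ID 12428, chromosome 3, 36564865 to 36571996). It stood at 21.7, 24.2 and 20.9 CPM in TAA, 9.69, 13.8 and 12.9 CPM after 2 weeks and 11.9, 13.1 and 13.9 CPM after 5 weeks. All 6 rhCYGB libraries lay well below the 3 TAA libraries, with replicate 17 lowest. The changes were -0.87 ± 0.15 (adjusted p = 0.0255) and -0.78 ± 0.15 (adjusted p = 0.0475). Cdk1, the kinase that starts mitosis, measured 32.5, 36.9 and 36.0 CPM in TAA, 19.2, 23.2 and 29.7 CPM after 2 weeks and 20.1, 24.6 and 21.9 CPM after 5 weeks. Its rhCYGB groups both lay below TAA without overlap. The changes of -0.55 ± 0.16 and -0.66 ± 0.16 did not pass the test (adjusted p = 0.0897 and 0.0777), and the former was -0.24 without replicates 17, 18 and 23. Ccnb1, cyclin B1, was similar at -0.70 ± 0.18 (adjusted p = 0.0588) and -0.81 ± 0.18 (adjusted p = 0.0582), and Ccnb2 stood at -0.79 and -0.70 without a call.

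Of the 4 transcription factors, only Foxm1 was called, and only after 2 weeks by this test. Foxm1 activates genes of G2 and mitosis (gene ID 14235, chromosome 6, 128362994 to 128375886). It was at 10.6, 11.6 and 10.1 CPM in TAA, 3.57, 6.49 and 5.99 CPM after 2 weeks and 6.65, 6.07 and 6.73 CPM after 5 weeks, with no overlap between TAA and either group. The log2 change was -1.01 ± 0.21 (adjusted p = 0.0382) and -0.73 ± 0.21 (adjusted p = 0.107). E2f1, an activator of replication genes, was tightly held: 6.43, 6.76 and 6.63 CPM in TAA, 4.55, 5.62 and 5.15 CPM after 2 weeks and 6.40, 6.63 and 5.92 CPM after 5 weeks, for changes of -0.37 ± 0.14 (adjusted p = 0.160) and -0.07 ± 0.14 (adjusted p = 0.852).

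E2f8, an atypical E2F that represses E2F targets, showed the widest scatter of the factors. Its levels were 4.91, 4.6 and 3.49 CPM in TAA, 3.06, 2.19 and 2.43 CPM after 2 weeks and 6.62, 3.01 and 5.72 CPM after 5 weeks, so that replicate 27 fell among the 2-week libraries and replicates 23 and 28 above TAA. The changes of -0.76 ± 0.29 (adjusted p = 0.157) and 0.24 ± 0.29 (adjusted p = 0.695) did not pass the test, and the latter was 0 on log2(FPKM + 1). Mybl2 encodes B-Myb, the partner of the MuvB complex. It measured 2.05, 2.17 and 2.28 CPM in TAA, 2.46, 1.67 and 1.22 CPM after 2 weeks and 1.48, 1.95 and 1.46 CPM after 5 weeks. Replicate 17, the lowest library for most members, held its highest level, and the change after 2 weeks was -0.28 ± 0.27 (adjusted p = 0.540), or -0.58 without replicate 17 and -0.08 without replicate 19.

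The nucleotide enzymes differed among themselves. Rrm2, the small subunit of ribonucleotide reductase that limits the supply of deoxynucleotides (gene ID 20135, chromosome 12, 24708254 to 24714146), fell after 2 weeks, from 27, 23.4 and 24.1 CPM to 10.6, 18.2 and 14 CPM (-0.80 ± 0.18, adjusted p = 0.0474). After 5 weeks it stood at 15.8, 17.6 and 17.1 CPM (-0.56 ± 0.18, adjusted p = 0.143), again with no library as high as in TAA. Tk1, the thymidine kinase of S phase, did not separate the groups at all, with 32.2, 25.6 and 32.0 CPM in TAA, 21.9, 34.5 and 28.5 CPM after 2 weeks and 24.8, 41.2 and 22.7 CPM after 5 weeks. Its changes of -0.08 ± 0.24 and -0.02 ± 0.24 were the smallest among the members in both comparisons (adjusted p = 0.862 and 0.980). Tyms, thymidylate synthase, overlapped in both as well, at -0.32 ± 0.23 (adjusted p = 0.412) and -0.50 ± 0.23 (adjusted p = 0.275).

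Of the 11 kinases and checkpoint, passenger and degradation genes of mitosis, 5 were called after 2 weeks (Bub1, Bub1b, Pbk, Plk1 and Birc5) and 2 after 5 weeks (Plk1 and Birc5). Bub1, a kinase of the spindle checkpoint (gene ID 12235, chromosome 2, 127800200 to 127831859), had the largest change of the 11 after 2 weeks in the count fit. It stood at 5.83, 5.18 and 4.44 CPM in TAA, 1.47, 2.14 and 2.5 CPM after 2 weeks and 2.51, 2.59 and 2.97 CPM after 5 weeks. The order TAA, 5 weeks, 2 weeks held without overlap. The changes were -1.34 ± 0.22 (adjusted p = 0.0255) and -0.94 ± 0.22 (adjusted p = 0.0676).

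Plk1, the polo-like kinase that acts at the centrosome, the kinetochore and in cytokinesis (gene ID 18817, chromosome 7, 122159435 to 122169884), was even across the TAA libraries at 12.4, 12.5 and 13 CPM. It measured 5.87, 7.03 and 8.39 CPM after 2 weeks and 6.96, 5.10 and 6.50 CPM after 5 weeks. It fell in both comparisons, by 0.83 ± 0.17 (adjusted p = 0.0382) and by 1.03 ± 0.17 on the log2 scale (adjusted p = 0.0379). Birc5 encodes survivin, a subunit of the chromosomal passenger complex (gene ID 11799, chromosome 11, 117849237 to 117855743). Its levels of 19.2, 21.7 and 22 CPM in TAA compare with 9.86, 14.6 and 14.3 CPM after 2 weeks and a narrow 10.9, 10.9 and 11.2 CPM after 5 weeks. The changes were -0.70 ± 0.16 (adjusted p = 0.0473) and -0.93 ± 0.16 (adjusted p = 0.0406), and no rhCYGB library overlapped TAA for either gene.

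Ube2c, the ubiquitin-conjugating enzyme of the anaphase-promoting complex, was lowest after 5 weeks. It read 30.1, 28.4 and 36.8 CPM in TAA, 22.4, 29.1 and 22.8 CPM after 2 weeks and 10.7, 22 and 13.9 CPM after 5 weeks, so that replicate 18 reached into the TAA range and every 5-week library lay below every 2-week library. Neither change was called, at -0.36 ± 0.24 (adjusted p = 0.393) and -1.03 ± 0.25 (adjusted p = 0.0703). The kinase Aurka, which matures the centrosomes, stood at 17.7, 17.4 and 17.9 CPM in TAA, 8.24, 11.6 and 12.4 CPM after 2 weeks and 7.44, 10.9 and 10.5 CPM after 5 weeks. Both rhCYGB groups of Aurka lay below TAA without overlap but overlapped each other, with changes of -0.72 ± 0.19 (adjusted p = 0.0670) and -0.88 ± 0.19 (adjusted p = 0.0575). Aurkb, Cdc20, Melk and Ttk were not called either, and had log2 changes of -0.81, -0.60, -1.18 and -0.85 after 2 weeks and -0.79, -0.80, -0.68 and -0.69 after 5 weeks.

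At the centromere and kinetochore, 2 of 6 members fell after 2 weeks, Nuf2 and Spc25, and 1 after 5 weeks, Nuf2. Both encode subunits of the Ndc80 complex, which holds microtubules to the kinetochore. Nuf2 (gene ID 66977, chromosome 1, 169497934 to 169531464) stood at 8.09, 8.24 and 6.69 CPM in TAA, 3.26, 4.05 and 3.94 CPM after 2 weeks and 4.6, 3.86 and 4 CPM after 5 weeks, with changes of -1.03 ± 0.17 (adjusted p = 0.0244) and -0.88 ± 0.17 (adjusted p = 0.0468). Spc25 (gene ID 66442, chromosome 2, 69193895 to 69206213) stood at 17.8, 24.1 and 23 CPM, then 12.4, 13.5 and 15.3 CPM, then 18.4, 17.5 and 20.0 CPM. The 2 subunits thus had different values after 5 weeks, where Nuf2 remained below TAA and Spc25 overlapped it (-0.66 ± 0.15, adjusted p = 0.0457, then -0.21 ± 0.15, adjusted p = 0.464). The difference between the 2 genes was not tested. Ndc80, the third of these subunits listed, stood at -0.80 ± 0.31 and -0.69 ± 0.31 without a call. Cenpa, Cenpe and Cenpf, proteins of the centromere and the outer kinetochore, had changes of -0.39, -0.60 and -0.92 after 2 weeks and -0.52, -0.52 and -0.65 after 5 weeks, none of them called.

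Of the 8 spindle motors and spindle proteins, Kif15, Kif18b, Kif11 and Hmmr fell after 2 weeks and none was called after 5 weeks, although all 8 were separate from TAA and lower at both times. Kif11 pushes the spindle poles apart and Kif15 can take over that work. Kif15 (gene ID 209737, chromosome 9, 122951081 to 123018733) had the largest change of all 47 members in the count fit, from 2.86, 1.98 and 2.77 CPM in TAA to 0.599, 0.735 and 1.11 CPM after 2 weeks, and 1.2, 1.45 and 1.25 CPM after 5 weeks. The changes were -1.64 ± 0.28 (adjusted p = 0.0255), which is 3.11-fold lower, and -0.97 ± 0.28 (adjusted p = 0.108). On log2(FPKM + 1), which shrinks changes of low genes, the 2-week change was -0.46.

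Kif11 (gene ID 16551, chromosome 19, 37376403 to 37421859) was at 9.90, 9.31 and 9.48 CPM in TAA, 3.86, 4.89 and 6.06 CPM after 2 weeks and 7.25, 6.45 and 6.61 CPM after 5 weeks. Kif18b, a kinesin that shortens microtubules at their tips (gene ID 70218, chromosome 11, 102905519 to 102925124), was at 4.99, 5.58 and 4.11 CPM, then 2.23, 1.89 and 2.03 CPM, then 2.75, 2.76 and 3.08 CPM. Both kept the order TAA, 5 weeks, 2 weeks without overlap. Their changes after 2 weeks were -0.95 ± 0.17 (adjusted p = 0.0275) and -1.26 ± 0.18 (adjusted p = 0.0235), and after 5 weeks -0.50 ± 0.17 (adjusted p = 0.165) and -0.77 ± 0.18 (adjusted p = 0.0650). Hmmr, a spindle protein that binds hyaluronan, fell by 0.85 on the log2 scale after 2 weeks (adjusted p = 0.0386). Kif2c, Kif4, Tpx2 and Nusap1 were not called, with changes of -0.62, -0.77, -0.66 and -0.78 after 2 weeks and -0.61, -0.66, -0.71 and -0.76 after 5 weeks.

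Cytokinesis had the largest share of calls among the roles with more than 3 members, with 5 of 6 genes lower after 2 weeks and a median log2 change of -1.02. Racgap1 and Kif23 form centralspindlin, which marks the cleavage plane. Racgap1 (gene ID 26934, chromosome 15, 99620496 to 99651656) fell from 19.7, 23 and 19.9 CPM to 7.40, 11.4 and 10.9 CPM (-1.08 ± 0.17, adjusted p = 0.0240) and stood at 11.8, 12.4 and 11 CPM after 5 weeks (-0.83 ± 0.17, adjusted p = 0.0513). Kif23 (gene ID 71819, chromosome 9, 61917278 to 61946799) fell from 4.58, 6.39 and 4.63 CPM to 1.76, 2.62 and 2.14 CPM (-1.26 ± 0.22, adjusted p = 0.0255) and stood at 2.64, 2.65 and 3.09 CPM after 5 weeks (-0.90 ± 0.21, adjusted p = 0.0696). The partners thus moved by similar amounts, and neither overlapped TAA in any rhCYGB library.

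Prc1, which bundles the microtubules of the spindle midzone (gene ID 233406, chromosome 7, 80294451 to 80316259), was called in both comparisons. It read 19.6, 23 and 19.4 CPM in TAA, 8.90, 10.2 and 12.8 CPM after 2 weeks and 9.47, 10.3 and 10.9 CPM after 5 weeks, for changes of -0.96 ± 0.16 (adjusted p = 0.0245) and -1.02 ± 0.16 (adjusted p = 0.0361). Anln encodes anillin, a scaffold of the contractile ring (gene ID 68743, chromosome 9, 22331214 to 22389206). It fell from 7.52, 9.74 and 6.91 CPM to 2.75, 3.51 and 4.82 CPM (-1.12 ± 0.26, adjusted p = 0.0472), with 6.19, 3.94 and 5.71 CPM after 5 weeks (-0.61 ± 0.25, adjusted p = 0.228); without replicates 17, 18 and 23 its 2-week change was -0.74. Kif20a, a motor of the midzone, fell by 0.89 ± 0.17 on the log2 scale after 2 weeks (adjusted p = 0.0281). Ect2, the exchange factor that switches on RhoA at the cleavage plane, was the member without a call. It stood at 10.8, 15.5 and 9.79 CPM in TAA, 6.88, 6.57 and 7.76 CPM after 2 weeks and 13.8, 7.96 and 11.5 CPM after 5 weeks. Only the 2-week libraries were below TAA (-0.77 ± 0.23, adjusted p = 0.0931), and the 5-week libraries overlapped the TAA range (-0.12 ± 0.23, adjusted p = 0.833).

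**Figure D4:**
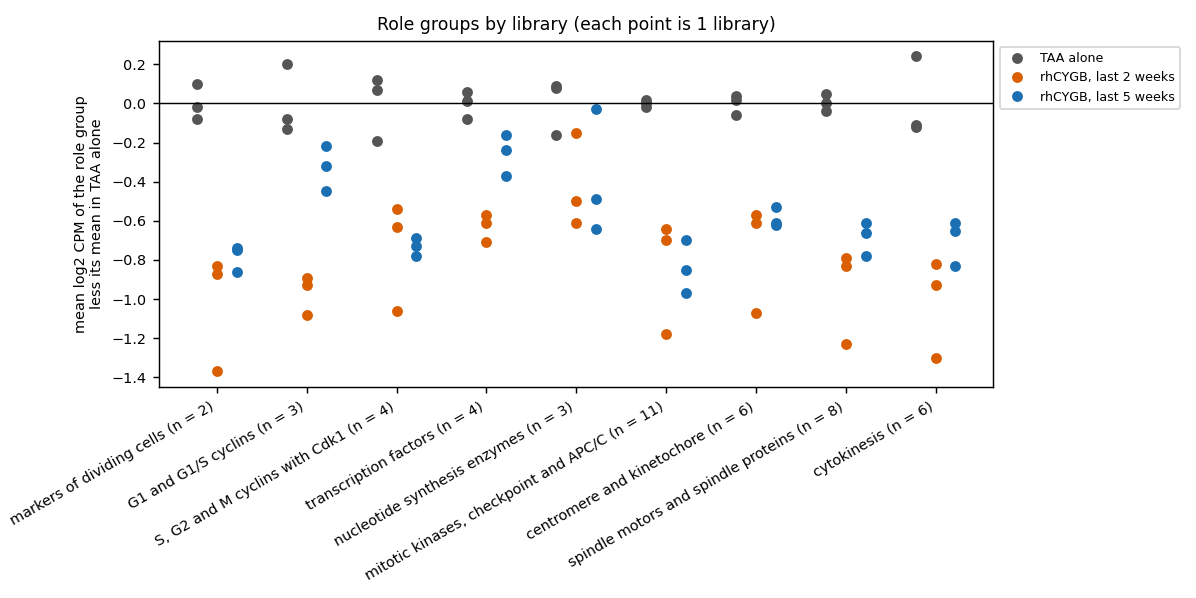
Mean log2 level of each of the 9 role groups in each library, set against the mean of the TAA libraries. After 2 weeks all role groups lie below the TAA mean in every library, at -1.37 to -0.15, and after 5 weeks the G1/S cyclins, transcription factors and nucleotide enzymes come closest to 0, with -0.64 to -0.03 over their libraries.

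The 5-week and 2-week groups were compared directly, which also tests whether the 2 effects against TAA differ. By edgeR, 0 of 47 members passed an adjusted p under 0.05, against 0.0204% of all tested genes (3 of 14731), of which 0.0136% were higher and 0.00679% lower. At an unadjusted p under 0.05, 8 members were higher and 1 lower after 5 weeks, against 12.7% and 10.5% of all tested genes, and DESeq2 called 3 higher (Ccne1, Ccne2 and E2f8), out of 469 called higher over all tested genes. The median log2 difference was 0.16, against -0.01 over all tested genes, with 13 members below 0 (51.1% of all tested genes were), and ran from -0.67 for Ube2c to 1.00 for E2f8. In 11 members all 5-week libraries lay above all 2-week libraries (10.9% of all tested genes did so) and in 1, Ube2c, below (10.2%). Without replicate 27, edgeR called 3 members, E2f8 and Ect2 higher and Ube2c lower, where it called 1889 genes in all.

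The 9 members past the unadjusted threshold were singled out after their values were seen. The E-type cyclins led with E2f8: Ccne1 was 0.68 ± 0.20 higher on the log2 scale (adjusted p = 0.170), Ccne2 0.93 ± 0.26 (adjusted p = 0.160) and E2f8 1.00 ± 0.29 (adjusted p = 0.168), in all or all but 1 of the 5-week libraries above every 2-week library. Ect2 (0.65 ± 0.23), Kif15 (0.67 ± 0.28), Kif18b (0.48 ± 0.18), Kif11 (0.45 ± 0.17) and Spc25 (0.44 ± 0.15) were also higher, with adjusted p between 0.177 and 0.205. Ube2c was lower, at -0.67 ± 0.25 (adjusted p = 0.180), and between -1.01 (without replicate 27) and -0.47 (without replicate 23) when 1 library was left out. Without replicates 17, 18 and 23 the differences shrank to 0.56 for Ccne2, 0.33 for Ect2, 0.27 for Kif15, 0.11 for Kif11, 0.29 for Spc25 and -0.35 for Ube2c. None of these differences passes correction over all genes, and a p above the threshold does not show that the courses act alike.

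Beyond the members, 7 lists of cell cycle genes were drawn up from general knowledge, but with earlier results of these data known. When pooled (187 further genes, all tested), they had a smaller median change in the same direction. After 2 weeks 26 of 187 (13.9%) were called lower and none higher, with a median of -0.58, against 1.34% of all tested genes called lower. After 5 weeks it was 6 (3.21%) and none, with a median of -0.35, against 0.604%. Without replicates 17, 18 and 23, edgeR called 8 genes lower in all after 2 weeks and 2 after 5 weeks. Most of these list calls therefore do not hold without those libraries, nor can all calls of the genes named below. By list, with the other spindle and cytokinesis genes slightly beyond the members' median, the genes called lower after 2 weeks were 7 of 29 for other spindle and cytokinesis genes (median -0.85), 6 of 40 for replication (-0.57), 5 of 23 for condensin, cohesin and separase (-0.60), 5 of 35 for other kinetochore and passenger genes (-0.60), and 1 each of 24 other cyclins, CDKs and Cdc25 phosphatases (-0.22), of 20 CDK inhibitors, pocket proteins and DREAM subunits (-0.23) and of 16 E2F, Myc and growth factor genes (-0.62). After 5 weeks the medians were -0.58, -0.35, -0.02, -0.42, -0.19, -0.18 and -0.56 in that order.

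Replication genes held some of the largest changes. Clspn, claspin, which relays replication stress to the checkpoint, fell from 2.88, 2.23 and 1.85 CPM to 0.537, 0.798 and 0.712 CPM after 2 weeks (-1.75 ± 0.26, adjusted p = 0.0240) and stood at 1.43, 1.39 and 1.17 CPM after 5 weeks (-0.80 ± 0.25, adjusted p = 0.139). Cdc6, which loads the replicative helicase, fell in both comparisons, from 2.96, 2.91 and 2.58 CPM to 0.806, 0.861 and 0.912 CPM (-1.71 ± 0.20, adjusted p = 0.0144) and to 1.31, 1.14 and 1.35 CPM (-1.15 ± 0.20, adjusted p = 0.0406). Uhrf1, which keeps DNA methylation through replication, fell by 1.65 ± 0.25 on the log2 scale after 2 weeks (adjusted p = 0.0240) and stood at -0.76 ± 0.25 after 5 weeks (adjusted p = 0.144).

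The chromosome structure and kinetochore genes named here fell after 2 weeks and were not called after 5 weeks. Smc2, a condensin subunit, stood at 7.30, 9.72 and 6.92 CPM in TAA, 3, 2.52 and 4.09 CPM after 2 weeks and 7.98, 4.44 and 6.42 CPM after 5 weeks (-1.32 ± 0.26, adjusted p = 0.0347, then -0.34 ± 0.26, adjusted p = 0.506). Ncapg2 of condensin II, the separase Espl1, the centromere protein Oip5 and the checkpoint protein Kntc1 fell after 2 weeks by 1.10, 1.05, 1.18 and 1.18 on the log2 scale. Their changes after 5 weeks, -0.33, -0.53, -0.49 and -0.55, were not called. Without replicates 17, 18 and 23 the 5-week changes of Smc2 and Ncapg2 were -0.55 and -0.63, and their 2-week changes were -0.96 and -0.88. Kif18a, a motor that shortens spindle microtubules, and Shcbp1, a midbody protein, likewise fell by 1.28 and 1.10 after 2 weeks and stood at -0.44 for both after 5 weeks without a call; without replicates 17, 18 and 23 the 2-week changes of Shcbp1 and Kntc1 were -0.64 and -0.76.

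Among regulators, Skp2, the F-box protein that marks the inhibitor p27 for degradation, and Rbl1, the pocket protein p107, fell after 2 weeks by 0.87 and 1.15 on the log2 scale (adjusted p = 0.0382 and 0.0347). E2f7, the close relative of E2f8, fell after 2 weeks from 0.942, 0.602 and 0.673 CPM to 0.103, 0.228 and 0.109 CPM (-2.27 ± 0.47, adjusted p = 0.0382) and stood at 0.648, 0.309 and 0.502 CPM after 5 weeks, where it overlapped TAA; its low counts, down to 5 reads in a library, limit its precision. After 5 weeks Cdc25b, the phosphatase that activates Cdk1, fell by 1.02 ± 0.20 (adjusted p = 0.0475), and Sapcd2, a gene of spindle orientation, by 1.55 ± 0.28 (adjusted p = 0.0427). Areg encodes amphiregulin, a ligand of the EGF receptor made in injured liver. It stood at 0.796, 1.23 and 1.48 CPM in TAA, 0.372, 0.304 and 0.529 CPM after 2 weeks and 0.170, 0.251 and 0.137 CPM after 5 weeks, where it fell 6.31-fold (-2.66 ± 0.42, adjusted p = 0.0361), on 11, 13 and 9 reads in the 5-week libraries.

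**Figure D5:**
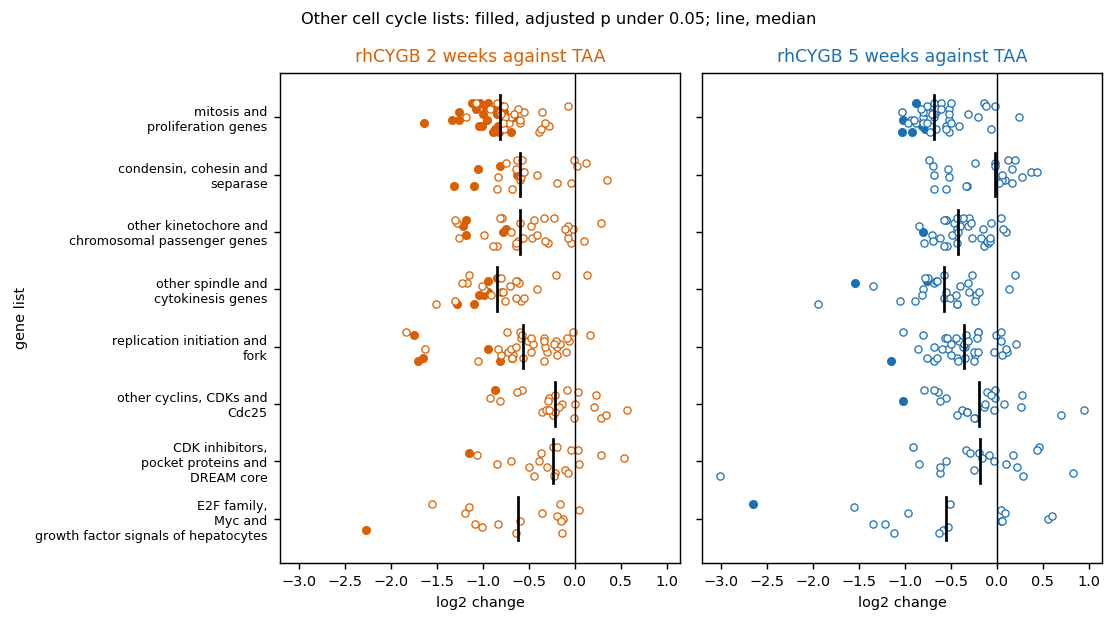
Log2 change against TAA after 2 weeks and after 5 weeks for each of the 47 genes (top row) and each gene of the 7 further cell cycle lists, with the list median as a line and points filled where the adjusted p was under 0.05. The medians of the 7 lists run from -0.85 (other spindle and cytokinesis genes) to -0.22 (other cyclins, CDKs and Cdc25) after 2 weeks and from -0.58 to -0.02 after 5 weeks.

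Some markers of other liver cells, but not of all of them, differed between the groups as well. The 10 stellate cell and myofibroblast markers summed to 1320 to 1990 CPM in TAA, 501 to 889 CPM after 2 weeks and 383 to 824 CPM after 5 weeks, and 2 of the 10, Acta2 (smooth muscle actin) and Col1a2 (a collagen chain), were called lower in both comparisons. The 9 hepatocyte markers summed to 103000 to 117000, 114000 to 153000 and 115000 to 152000 CPM, with 1 of 9 called higher after 2 weeks (Serpinc1). The 9 T and NK cell markers summed to 3.26 to 5.26, 10.1 to 15.4 and 3.61 to 12.7 CPM, with 2 of 9 higher after 2 weeks (Cd8b1 and Nkg7). Macrophage markers summed to 750 to 814, 658 to 1010 and 519 to 673 CPM, with 1 of 10 higher after 2 weeks (Clec4f). Cholangiocyte markers summed to 362 to 581, 292 to 402 and 129 to 390 CPM, endothelial markers to 110 to 122, 109 to 132 and 97.4 to 118 CPM, B cell markers to 12.1 to 17.5, 14.2 to 16.6 and 12.4 to 20.6 CPM and neutrophil markers to 9.24 to 49.1, 12.4 to 38.9 and 8.37 to 14.8 CPM, with no call in either comparison with TAA. Of the 8 neutrophil markers, 7 passed the filter and were tested. Of 8 erythroid markers, only 2 were tested, and 2 (Rhag and Hemgn) were at 0 in all libraries. Of the 2 tested, Alas2 was called higher after 2 weeks. The erythroid list summed to 78.4 to 90.8, 160 to 175 and 101 to 164 CPM. Of 8 markers of muscle, only 2 were tested, and Myh1 was at 0 throughout. The muscle list, which shares Des with the stellate list, summed to 16.7 to 33.9, 12.6 to 22.5 and 5.52 to 11.3 CPM. Their part in the changes of the mitosis genes was not tested.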

How the data were processed

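Polyadenylated liver RNA was sequenced from both ends as strand-marked libraries, per the labels' protocols. According to the submitters' processing notes, the build was mm10 and the tools were HISAT2 2.1.0, StringTie 1.3.4d and FastQC 0.11.7. The tests used the authors' estimated counts for each gene, a column named read count in the file headers. They are already whole numbers, and how they were derived from StringTie output is not given in the sources used here, nor is counting by strand or of reads with several loci. The authors' deposited FPKM columns served to set levels of different genes side by side and for 2 alternatives (log2 of FPKM plus 1 or 0.1, tested with limma 3.58.1). Transcript lengths, another value in the deposited table, served for a length trend.

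Genes were kept by filterByExpr (minimum count 10, minimum total 15), given TMM factors and tested in edgeR 4.0.16 (quasi-likelihood F test, R 4.3.3), with all 9 libraries in 1 fit of 3 groups (6 residual degrees of freedom, common biological coefficient of variation 24.9%) and Benjamini-Hochberg adjustment over 14731 genes; a gene was called at an adjusted p under 0.05. Standard errors are the size of the log2 change divided by the square root of F, and SDs are over 3 libraries. DESeq2 1.42.0 was an alternative. The fits were tested on simulated data. Of 322 list and marker symbols, 320 matched. Promoter motifs and figures were made with Python 3.11.15.

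The members, lists and markers were chosen with earlier results of these data known. For values in every library, the rule named Mki67, Top2a, Ccnd1 and up to 3 called genes with the largest change per role or list; 1 gene so named is not reported here. Ccne2, Cdk1, Ccnb1, E2f1, E2f8, Mybl2, Tk1, Tyms, Ube2c, Aurka, Ect2 and Prc1 were added after their values were seen.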

Additional observations from a re-analysis of the deposited data

Results flagged for a closer look

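A measurement outside the comparisons stood above its level in the TAA libraries. Nusap1, a protein that stabilises spindle microtubules, has 2 transcripts in the deposited transcript table, of 2960 and 2861 bases. The shorter held 32.8% to 37.2% of the gene's estimated reads in the 2-week libraries, 10.6% to 11.9% in TAA and 0% to 37.1% after 5 weeks. It was picked among the transcripts of all members because its lowest share in an rhCYGB group passed the highest TAA share by a set margin. The separation of the 2-week libraries from TAA thus follows from that rule. Such shares varied widely within a group for other members, as for a Bub1 transcript with 28.4% to 100% in TAA. The cause was not tested.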

How the results depend on the processing

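No paired analysis was possible because the groups share no replicate number. After 2 weeks 23 of 47 members were called lower. The count was 42 with library totals, 38 with DESeq2, and 42 with log2(FPKM + 1) and with log2(FPKM + 0.1). It was 20 with upper quartile scaling, 18 with genes of at least 1 read, 30 with the length trend removed and 31 with only the 6 libraries compared. Without replicates 17, 18 and 23 it was 0, and leaving out 1 library gave 0 to 34. After 5 weeks 6 were called; it was 23 with library totals, 27 with DESeq2, 32 and 24 on the FPKM scales, 18 with the length trend removed, 3 with genes of at least 1 read, 0 with only the 6 libraries compared, 0 without 17, 18 and 23, and 0 to 5 when leaving out 1. Between the courses, 0 became 3 with DESeq2 and 0 to 3 when leaving out 1.

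The 2-week median of -0.81 moved to -1.14 with library totals and -1.13 with log2(FPKM + 0.1), and that of 5 weeks, -0.69, to -0.91 and -0.89. Leaving out 1 library gave -0.93 to -0.71, -0.73 to -0.68 and, between the courses, 0.06 to 0.28. Totals put the median of all genes at -0.36 and -0.21, log2(FPKM + 0.1) at -0.33 and -0.21, and log2(FPKM + 1) at -0.20 and -0.13, so changes are relative to these.

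Changes near 0 turned: Tk1 after 2 weeks to 0.08 without replicate 17 (-0.25 without 18), and after 5 weeks to 0.03 without 12 or 14, 0.07 without 23, 0.13 without 28 and 0.10 without 17, 18 and 23; E2f8 after 5 weeks to 0 and -0.03 on the FPKM scales; Ect2 after 5 weeks to 0.10 without 13 and 0.07 without 27 (-0.32 without 23). Single-gene values covered 18 alternatives for the genes named by the rule or after their values were seen, members and other list genes alike. Of 846 such values in each comparison with TAA, 558 after 2 weeks and 661 after 5 weeks kept direction and side of the threshold. The cause of the other changes was not tested. At 3 libraries a group, even changes of several SEs missed edgeR's threshold, as for Ube2c and Kif15 after 5 weeks, so smaller differences cannot be resolved.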
